A study of Homo sapiens with 12 samples.

Results

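APOE, GPNMB, SPP1, LPL, TREM2, TYROBP, CD9, CLEC7A, ITGAX and LGALS3 are described here, 10 genes known from disease-associated microglia (DAM). They were taken by gene name from a table of estimated RNA-seq counts with 62703 genes. All 10 passed the filter on low counts, as did 15530 genes in all. The samples are bulk polyA RNA of iMGLs, microglia-like cells differentiated from the human iPSC line WTC11. The WTC11 line was edited with CRISPR by non-homologous end joining, which gave 3 control (WT) clones, named J, K and L, and 3 LACTB knockout (LACTB KO) clones, named A, B and C. Each line is 1 clone, and each clone was taken through differentiations 1 and 2, which gives 12 libraries with 6 per genotype. All cultures received IL34, TGFb and MCSF, were then given CX3CL1 and CD200 as well, and had no further treatment. A library is named below by its clone and its differentiation, so that J2 is differentiation 2 of WT clone J.

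Microglia that meet amyloid, myelin debris or dying neurons take on a DAM state in which lipid handling, lysosomal and phagocytic genes are raised and homeostatic genes are lowered. The lipid-sensing receptor TREM2 signals through its partner TYROBP, and in mice the full state depends on TREM2. The other genes of the group encode lipid carriers and lipases, surface receptors and secreted proteins, and they serve as markers of this state in tissue and in culture.

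Libraries held 24153233 to 28406943 estimated counts. Levels are given as CPM (estimated counts scaled to library size with TMM, not corrected for gene length) unless another scale is named. LACTB, the edited gene, lay at 71.6 to 98.1 CPM in the 6 WT libraries, at 44.4 and 51.6 in both libraries of LACTB KO clone B and at 7.49 to 9.78 in the 4 libraries of clones A and C. All 13 myeloid markers were detected, with a summed level of 10216 to 12480 CPM. Stromal markers, 14 collagen, fibroblast and smooth muscle genes, summed to 10583 CPM in J1 and 5361 in K2, against 23.7 to 1152 in the other 10 libraries. Of the markers of other cell types, 5 of 7 granulocyte genes (MPO and ELANE among them), 5 of 6 mast cell genes (TPSAB1 and CPA3 among them) and 1 of 5 endothelial genes (CDH5) had no more than 3 counts in any library. The granulocyte list summed to 0.0706 to 1.72 CPM and the endothelial list to 1.73 to 9.45 CPM, with 1.72 and 7.51 in J2. The mast cell list summed to 1.76 to 27.9 CPM, nearly all of it KIT.

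Library J2 stood apart in the genes described here, and main values of each comparison are therefore also given without it. In comparisons within clones, leaving it out leaves clone J without a pair, so there the values are those without WT clone J. It was the highest of 12 libraries in 7 of the 10 genes, a position it held in 17.6% of the 15530 genes. It was the lowest in 1 of the 10, CD9, and in 15.6% of all genes. It was at least 2-fold above every other library in APOE, GPNMB and LGALS3, against 1.6% of all genes. It was at least 4-fold above every other library in APOE and GPNMB, which is the case for 57 genes or 0.367% of all. The corresponding number of genes was 44 in J1, 22 in K2, 1 in L1 and 0 in the other libraries. Together the 10 genes took 1.127% of the estimated counts of J2, against 0.2926% to 0.5421% in the other 11 libraries. In bulk RNA, fewer cells of a type and less RNA per cell cannot be told apart.

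**Figure D1:**
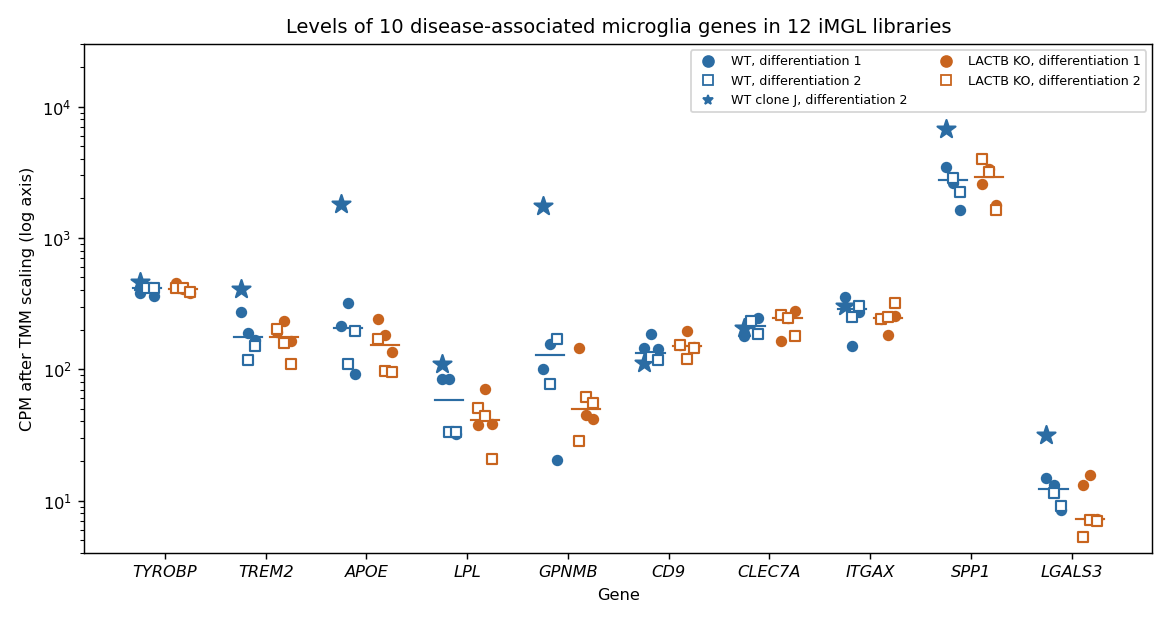
Levels of the 10 genes (CPM after TMM scaling, log axis) in 12 iMGL libraries, with WT in blue, LACTB KO in orange, filled circles for differentiation 1, open squares for differentiation 2, a star for J2 and a short line at each genotype's median. The star stands far above the other points in APOE (1818 CPM) and GPNMB (1736 CPM), while the 12 points of TYROBP stay between 364 and 464 CPM.

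GPNMB and TYROBP mark the ends of the range of variation in this group. Over 12 libraries the SD of log2 CPM was 1.67 for GPNMB, with 98.6% of genes varying less, and 0.10 for TYROBP, with 8.83% varying less. Without J2 it was 1.01 for GPNMB, with 96% of genes varying less, and 0.09 for TYROBP, with 7.1% varying less. The 250 bases before the RefSeq start of both genes (GRCh38.p14) are shown because they belong to the most and the least variable member. RefSeq promoter windows of 250 bases before and 50 after the start were found for 7 of the 10 genes. The GENCODE model of GPNMB begins further upstream, at chr7:23235967, so the GPNMB bases shown lie inside that model. The capitals mark the only matches in these windows to the motifs searched on both strands.
GPNMB, chr7:23246525-23246774, plus strand: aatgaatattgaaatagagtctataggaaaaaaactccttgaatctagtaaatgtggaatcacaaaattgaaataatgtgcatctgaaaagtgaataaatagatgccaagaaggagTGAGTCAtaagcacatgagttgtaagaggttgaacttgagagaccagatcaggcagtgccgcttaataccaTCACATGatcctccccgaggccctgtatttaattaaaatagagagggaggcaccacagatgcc
TYROBP, chr19:35908296-35908545, minus strand: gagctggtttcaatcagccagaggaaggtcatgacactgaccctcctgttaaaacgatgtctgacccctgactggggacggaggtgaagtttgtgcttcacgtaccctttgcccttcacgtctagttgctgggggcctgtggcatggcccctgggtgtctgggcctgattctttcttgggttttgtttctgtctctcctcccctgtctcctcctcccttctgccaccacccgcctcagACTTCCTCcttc

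In the GPNMB window, TGANTCA, the core that AP-1 factors read, began at -134 as TGAGTCA, and CATGTGA, the core of the M-box read by MITF and TFE factors, began at -63 on the opposite strand, where the sequence shows TCACATG. No other of the 7 windows held either motif. TGANTCA occurs in 7.76% and CATGTGA in 3.39% of 27305 windows of this length. In the TYROBP window, GAGGAAGT, a purine-rich motif of the kind that PU.1 reads, began at -12 on the opposite strand (printed as ACTTCCTC), and it occurs in 2.54% of windows. CACGTG, the palindromic E-box found in lysosomal gene promoters, occurs in 7.43% of windows and in 0 of the 7. None of these motifs overlaps another in the printed sequence, and a match says nothing of binding.

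TYROBP (chr19:35904401-35908295, GRCh38, as all coordinates here) encodes the adaptor that carries the signal of TREM2 and of several other myeloid receptors into the cell. TYROBP was at 383 and 464 CPM in J1 and J2, at 426 and 415 in K1 and K2, and at 364 and 416 in L1 and L2. In the LACTB KO clones it was at 456 and 413 CPM in A1 and A2, at 406 and 419 in B1 and B2, and at 381 and 386 in C1 and C2. The highest library was 1.27-fold above the lowest, and the genotypes overlapped throughout. J2 was highest here too, but by only 1.02-fold over A1.

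TREM2 (chr6:41158506-41163186) encodes the receptor itself, which binds lipids, lipoproteins and APOE. TREM2 was at 271 and 409 CPM in J1 and J2, at 188 and 118 in K1 and K2, and at 166 and 151 in L1 and L2. In A1 and A2 it was at 192 and 202 CPM, in B1 and B2 at 233 and 158, and in C1 and C2 at 163 and 110. Both libraries of WT clone J were above the other 10, whereas clones K and L lay within the range of the LACTB KO clones. The ratio of the highest to the lowest library was 3.71, and 2.45 without J2.

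APOE (chr19:44905791-44909393) encodes the lipoprotein through which glia export and take up cholesterol. APOE was at 214 and 1818 CPM in J1 and J2, at 318 and 110 in K1 and K2, and at 92.5 and 196 in L1 and L2. In LACTB KO, A1 and A2 were at 243 and 169 CPM, B1 and B2 at 181 and 96.2, and C1 and C2 at 135 and 94.8. J2 was 5.72-fold above the next library, K1, and 10.7-fold above the median of the other 11. Among those 11 the highest was 3.44-fold above the lowest, and the genotypes overlapped. Of the exon bases of APOE, 0.882% are shared with a further gene model on the same strand.

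LPL (chr8:19901717-19967259) encodes lipoprotein lipase, which frees fatty acids from triglycerides. LPL was at 83.5 and 110 CPM in J1 and J2, at 85.0 and 33.4 in K1 and K2, and at 32.4 and 33.5 in L1 and L2. LACTB KO clone A had 37.9 and 50.6 CPM in A1 and A2, clone B had 70.4 and 43.8, and clone C had 38.0 and 20.6. J1, J2, K1 and B1 were high and the rest stayed at or below 50.6 CPM. J2 was 1.29-fold above the next library.

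GPNMB (chr7:23235967-23275108) encodes a transmembrane glycoprotein of lysosomes and the cell surface that is abundant in lipid-laden macrophages. GPNMB was at 100 and 1736 CPM in J1 and J2, at 157 and 77.8 in K1 and K2, and at 20.5 and 170 in L1 and L2. The libraries A1 and A2 were at 145 and 28.3 CPM, B1 and B2 at 45.2 and 61.3, and C1 and C2 at 42.1 and 55.2. J2 was 10.2-fold above the next library, L2, and 28.3-fold above the median of the other 11. The other 11 also spread widely, over 8.31-fold, and the libraries of 1 clone could be as far apart as L1 and L2.

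CD9 (chr12:6199715-6238271), a tetraspanin of the cell surface and of extracellular vesicles, was the only one of the 10 whose lowest library was J2. CD9 was at 145 and 112 CPM in J1 and J2, at 184 and 123 in K1 and K2, and at 142 and 118 in L1 and L2. In A1 and A2 it was at 153 and 154 CPM, in B1 and B2 at 196 and 119, and in C1 and C2 at 147 and 146. No library was more than 1.75-fold above another. The values of differentiation 1 were the higher ones in most clones.

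CLEC7A (chr12:10116777-10130258) encodes dectin-1, a receptor for fungal beta-glucans that signals through SYK. CLEC7A was at 180 and 204 CPM in J1 and J2, at 225 and 232 in K1 and K2, and at 244 and 185 in L1 and L2. In LACTB KO, A1 and A2 were at 164 and 260 CPM, B1 and B2 at 244 and 245, and C1 and C2 at 276 and 178. The highest and lowest libraries were both of LACTB KO clones, and J2 lay within the range of the others.

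ITGAX (chr16:31355134-31382999) encodes CD11c, the alpha chain of complement receptor 4. ITGAX was at 358 and 302 CPM in J1 and J2, at 151 and 249 in K1 and K2, and at 271 and 301 in L1 and L2. LACTB KO clone A had 241 and 242 CPM in A1 and A2, clone B had 184 and 251, and clone C had 256 and 318. K1 and B1 were the low libraries and J1 the high one, so that J2 was not the extreme.

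SPP1 (chr4:87975667-87983532) encodes osteopontin, a secreted phosphoprotein that binds integrins and CD44. SPP1 was at 3473 and 6777 CPM in J1 and J2, at 2608 and 2885 in K1 and K2, and at 1633 and 2254 in L1 and L2. The libraries A1 and A2 were at 2590 and 3999 CPM, B1 and B2 at 3332 and 3183, and C1 and C2 at 1780 and 1640. J2 was 1.69-fold above the next library, A2, and clones L and C were low in both differentiations. Of its exon bases, 2.7% overlap an antisense lncRNA, and the kit does not mark strand.

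LGALS3 (chr14:55124110-55145423) encodes galectin-3, a carbohydrate-binding protein that gathers on damaged lysosomes and is also secreted. LGALS3 was at 14.8 and 31.6 CPM in J1 and J2, at 13.1 and 11.5 in K1 and K2, and at 8.45 and 9.06 in L1 and L2. In A1 and A2 it was at 13.1 and 5.31 CPM, in B1 and B2 at 15.5 and 7.17, and in C1 and C2 at 7.18 and 6.93. J2 was 2.04-fold above the next library, B1, and the libraries of clones L and C and those of differentiation 2 of A and B stayed under 10 CPM.

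**Figure D2:**
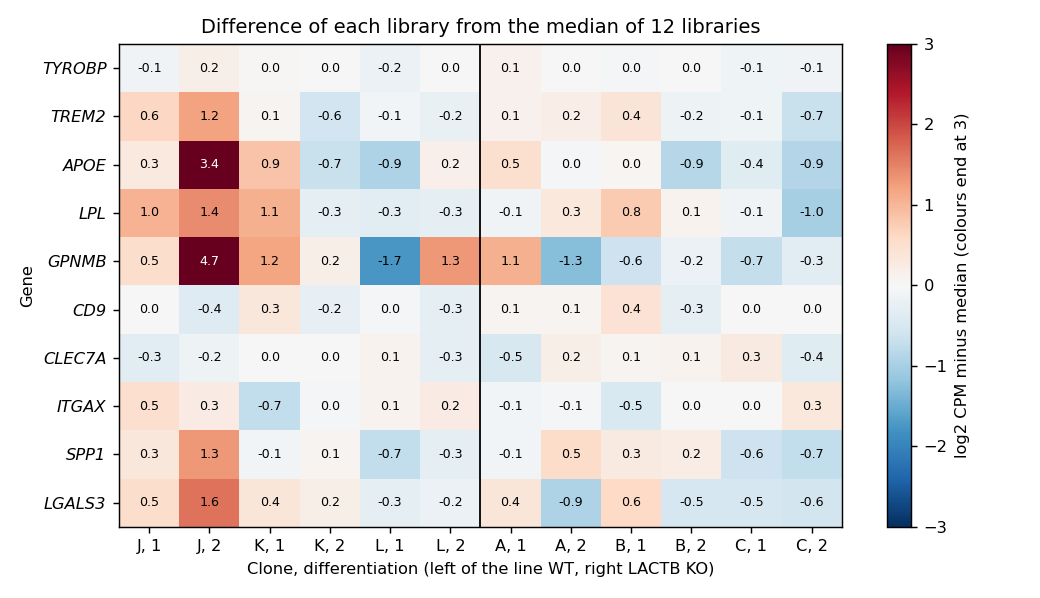
Difference of each library from the median of 12 libraries, in log2 CPM with a prior count of 2, for the 10 genes (rows) and 12 libraries (columns, clone and differentiation), with colours that end at 3. The column of J2 holds the strongest differences, in GPNMB and APOE, while the rows of TYROBP, CD9 and CLEC7A stay pale.

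Per kilobase of exon, which allows genes to be compared, the order of the median levels was TYROBP, SPP1, TREM2, APOE, CLEC7A, ITGAX, CD9, GPNMB, LPL and LGALS3. The medians ran from 456 CPM per kilobase for TYROBP and 379 for SPP1 through 162 for TREM2 and 81.4 for APOE to 11.8 for GPNMB, 9.91 for LPL and 4.67 for LGALS3. The ranges of every pair of neighbours in this order overlapped. SPP1 exceeded TREM2, and LPL exceeded LGALS3, within each of the 12 libraries, whereas GPNMB exceeded LPL in 6 of them. With the length of the longest annotated transcript in place of the union of exons, SPP1 and TYROBP changed places, at 675 and 668 CPM per kilobase.

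Several of the genes went up and down together across libraries. Pearson's r of log2 CPM over 12 libraries was 0.90 for APOE and GPNMB, 0.88 for LPL and TREM2 and 0.83 for APOE and TREM2. Without J2 these were 0.65, 0.84 and 0.62 over 11 libraries. GPNMB and TREM2 had an r of 0.59 that was 0.04 without J2, and CD9 and ITGAX went in opposite directions with and without it (-0.68 and -0.66). These values are descriptions over libraries that share clones, differentiations and the stromal differences above.

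Over all genes that passed the filter, the transcript most like SPP1 was SLC7A7, an amino acid transporter subunit, with an r of 0.98 over 12 libraries and 0.99 without J2. METTL23, a methyltransferase gene, was first for APOE (r 0.97, and 0.93 without J2). SCOC was first for GPNMB (0.97, and 0.93 without J2), and SIGLEC15, which also pairs with TYROBP, was second (0.97, and 0.90 without J2). CTSZ, a cathepsin, was first for GPNMB without J2 (0.94). CTSA, a lysosomal carboxypeptidase, was first for LGALS3 (0.95, and 0.91 without J2). PLA2G15, a lysosomal phospholipase, and GRN, the progranulin gene, came after LRP3 for LPL without J2 (both 0.93). Over 12 libraries GAL3ST4 was first for TREM2 (0.94), GON7 for TYROBP (0.96) and GPA33 for CD9 (0.91). SESTD1 was first for CLEC7A (0.92) and CRELD1 for ITGAX (0.95).

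Of 27 further DAM genes, 26 passed the filter and 17 were highest in J2. CST7, a cystatin gene, was the lowest in J2 (0.897 CPM, against 1.55 to 11.4), and AXL, CSF1, CD52 and ANKH also lay below the median of the other libraries. In J2, 5 were at least 2-fold above every other library, namely CD68 and the cathepsin and lysosomal enzyme genes CTSA, CTSB, CTSD and CTSL. CTSB was at 4596 CPM in J2 and at 709 to 1616 in the others. CTSD was at 6562 CPM in J2 and at 1357 to 2550 in the others. The median log2 ratio of J2 to the median of the other libraries was 1.34 for the 10 genes, 0.86 for the further DAM genes and -0.02 for all genes.

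Of 20 lipid handling genes, 19 passed, 10 were highest in J2 and APOC1, FABP3, LIPA and MSR1 were at least 2-fold above every other library, with a median log2 ratio of 0.67. FABP3, a fatty acid carrier, was at 36.3 CPM in J2 and at 1.15 to 5.78 in the others. MSR1, a scavenger receptor for modified lipoproteins, was at 454 CPM in J2 and at 38.5 to 110 in the others. ABCG1, a cholesterol exporter, was at 4.75 CPM in J2, close to the median of 4.44 in the others.

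Of the 20 genes of the TREM2 signaling list, 5 were highest in J2 and none was 2-fold above every other library, with a median log2 ratio of -0.17. In J2, 8 of the 20 were lowest, against 15.6% of all genes, some by a small margin. SYK, the kinase that TYROBP recruits, was at 334 CPM in J2 and at 337 to 413 in the others. Among 12 transcription regulators 2 were highest in J2, TFE3 (191 CPM against 143 to 183) and NR1H3 (10.9 CPM against 2.88 to 7.40). The lowest in J2 were 3, namely TFEB, BHLHE41 and RXRA, and MITF was at 26.2 CPM there against 16.6 to 28.2. Of 13 homeostatic genes, 6 were highest and 2 lowest in J2. TMEM119, a homeostatic marker, was at 10.7 CPM in J2 and at 0.32 to 1.87 in the others, and the fructose transporter gene SLC2A5 was at 116 CPM against 17.5 to 39.0. The lowest were the purinergic receptor gene P2RY13, at 93.0 CPM against 122 to 209, and CSF1R, the receptor gene for MCSF and IL34, at 1383 CPM against 1543 to 2041. P2RY12 and CX3CR1 were at 0.643 and 0.699 times the median of the others.

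CYP27A1, the mitochondrial sterol 27-hydroxylase gene, led the 57 genes that were at least 4-fold above every other library in J2, at 118 CPM against a highest other value of 6.75. CTSK (78.7 against 10.8 CPM), ATP6V0D2 (69.0 against 13.3), a subunit gene of the lysosomal proton pump, and MGLL (127 against 25.1), which encodes monoacylglycerol lipase, were also in that set. KIT, the stem cell factor receptor gene, was at 1.72 CPM in J2 and at 3.49 to 27.9 in the others. The stromal markers of J2 summed to 677 CPM, under J1, K2 and B2 and above the other 8 libraries, and the 12 that passed the filter had a median log2 ratio of 2.02 to the other libraries. The part of any of these in the levels of the 10 genes was not tested.

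**Figure D3:**
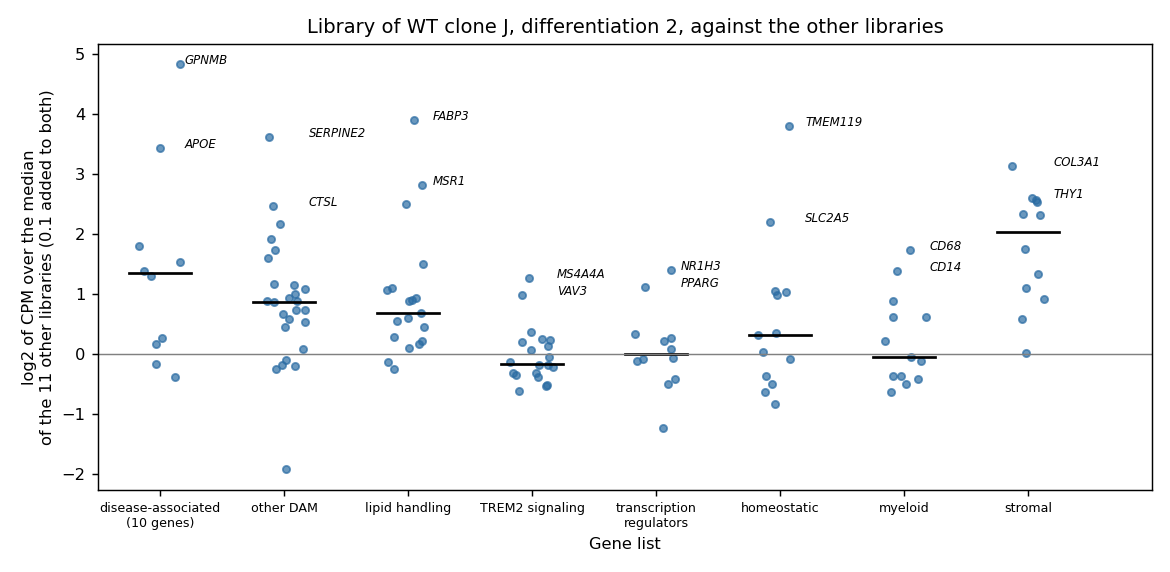
log2 ratio of J2 to the median of the other 11 libraries in CPM (vertical axis, 0.1 added to both) for the genes of 8 lists (points), with the list median as a bar and the 2 highest genes of each list named. The bar of the 10 genes is at 1.34, under that of the stromal list at 2.02 and above those of the other 6 lists, and the TREM2 signaling list lies around 0.

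The comparison of LACTB KO with WT iMGLs asked whether loss of LACTB went with another level of these genes. No member passed: edgeR's quasi-likelihood test on the 3 LACTB KO and 3 WT clones, with both libraries of a clone summed and Benjamini-Hochberg adjustment over 17577 genes, called 0% of genes at an adjusted p under 0.05. At an unadjusted p under 0.05 it had 1118 genes (6.36%), of which 977 were lower (5.56%) and 141 higher (0.802%), and GPNMB was the only member. DESeq2 called 171 genes but no member, and it returned no p for GPNMB. limma voom with clone as a random effect called 0 genes and had 607 at an unadjusted p under 0.05. LACTB itself had a log2 fold change of -1.87 (SE 0.675, edgeR adjusted p = 0.735).

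Of the 10 genes, 7 had a lower mean in LACTB KO clones and 3 a higher one, with a median log2 fold change of -0.26, and 48.3% of all genes were lower. Without J2, 6 were lower and the median was -0.15, and without WT clone J, 4 were lower and the median was 0.02. In differentiation 1 alone 7 were lower with a median of -0.06, and in differentiation 2 alone 8 were lower with a median of -0.48. The sign of the median thus turned when WT clone J was left out.

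GPNMB had the largest difference, with a mean of 62.8 ± 41.8 CPM in LACTB KO and 377 ± 668 CPM in WT (SD, n = 6 libraries of 3 clones each). Its log2 fold change was -2.60 (SE 0.901, unadjusted p = 0.0239 and adjusted p = 0.726 in edgeR). Without J2 the WT mean was 105 ± 61.0 CPM (n = 5) and the log2 fold change -0.73 (SE 0.207, unadjusted p = 0.00949 and adjusted p = 0.711 in edgeR). It was -0.26 in differentiation 1 and -3.78 in differentiation 2.

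By clone, GPNMB was at 917 CPM in J, 117 in K and 92.2 in L, and at 83.2 in A, 53.4 in B and 48.6 in C. Each LACTB KO clone was thus below every WT clone, which held for no other of the 10 genes and for 6.37% of all genes. The exact two-sided permutation test gave p = 0.1, the smallest that 3 clones against 3 allow. The libraries overlapped, with L1 below every LACTB KO library and A1 above 3 of the WT libraries. With the stromal level as a covariate on the 12 libraries the log2 fold change was -1.996, and without J1 and K2 it was -3.42. With differentiation as a replicate block on the 12 libraries it was -2.02 (SE 1.02, unadjusted p = 0.0707 in edgeR). The stromal covariate and block fits hold no term for clone, so they treat the libraries of a clone as separate replicates of the genotype.

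APOE had a mean of 153 ± 56.6 CPM in LACTB KO and 458 ± 671 CPM in WT (SD, n = 6), with a log2 fold change of -1.58 (SE 0.723, edgeR adjusted p = 0.820). Without J2 the WT mean was 186 ± 90.4 CPM (n = 5) and the log2 fold change -0.31 (SE 0.241, edgeR adjusted p = 0.844). LGALS3 had a mean of 9.20 ± 4.09 CPM in LACTB KO and 14.8 ± 8.60 CPM in WT (SD, n = 6). Its log2 fold change was -0.69 (SE 0.365), and -0.38 (SE 0.244) without J2. For both genes the clones of the genotypes overlapped.

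The receptor pair and the remaining members differed by less than 2 standard errors. The log2 fold change of TREM2 was -0.29 (SE 0.327), -0.13 without J2 and 0.18 without WT clone J. That of TYROBP was 0.00 (SE 0.0786), and 0.05 without J2. LPL had -0.52 (SE 0.400), -0.41 without J2 and -0.07 without WT clone J, and SPP1 had -0.23 (SE 0.400), and 0.04 without J2. CD9 had 0.16 (SE 0.0899), CLEC7A 0.12 (SE 0.0921) and ITGAX -0.12 (SE 0.189), and without J2 they had 0.10, 0.15 and -0.17. These 7 genes had edgeR adjusted p-values of 0.878 to 0.997.

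**Figure D4:**
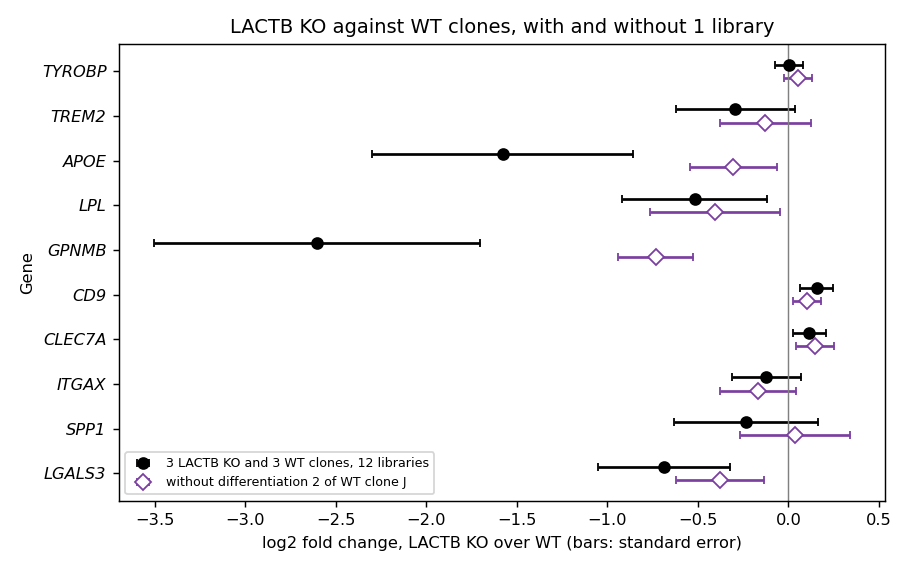
log2 fold change of LACTB KO over WT clones with its standard error (bars) for the 10 genes, with all 12 libraries (black) and without J2 (open purple). GPNMB goes from -2.60 to -0.73 and APOE from -1.58 to -0.31, while TYROBP stays at 0.00 and 0.05.

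Related genes were counted in the same comparison. Of 26 further DAM genes, 21 were lower in LACTB KO clones, with a median log2 fold change of -0.30 that was -0.10 without J2, against 0.01 over all genes. SERPINE2, a secreted protease inhibitor, was the only one with an unadjusted p under 0.05 in edgeR (log2 fold change -3.69, SE 1.21). Outside J2 it had a median of 1.51 CPM and a highest value of 177. Without J2, 2 of the 26 were under 0.05 in edgeR. Without J1 and K2, and also with the stromal covariate, 0 were. Of 19 lipid handling genes, 14 were lower (median -0.19, and -0.07 without J2), and 4 had an unadjusted p under 0.05 beside the 5.56% of all genes above: FABP3 (-2.22), MSR1 (-1.04), LRP1 (-0.55) and CD36 (-0.38). Without J2, 2 lipid handling genes did. Of the 20 TREM2 signaling genes 14 were higher (median 0.05) and none had an unadjusted p under 0.05. All 13 stromal genes tested were lower, with a median of -3.44, and without J1 and K2, 9 of 12 were lower with a median of -0.32.

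Differentiation 2 was compared with differentiation 1 within the 6 clones. edgeR with clone as a fixed effect called 0% of 17335 genes at an adjusted p under 0.05, with 1583 genes (9.13%) at an unadjusted p under 0.05, while DESeq2 called 266 genes and no member. CD9 was lower in differentiation 2 in 5 of 6 clones, a pattern of 13.6% of all genes. The log2 change of CD9 was near 0 in clones C (-0.0075) and A (0.0036), and lay from -0.72 to -0.27 in J, K, L and B. Its mean was 161 ± 23.1 CPM in differentiation 1 and 129 ± 17.0 CPM in differentiation 2 (SD, n = 6), a log2 fold change of -0.32 (SE 0.105, unadjusted p = 0.0150 and adjusted p = 0.394 in edgeR). It was the only member with an unadjusted p under 0.05. Without WT clone J it had -0.32 (unadjusted p = 0.0356 in edgeR), and TREM2 (-0.37, unadjusted p = 0.0163 in edgeR) and ITGAX (0.33, unadjusted p = 0.0152 in edgeR) were under 0.05 as well, while no member was among the 44 genes then called.

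ITGAX was higher in differentiation 2 in 5 of 6 clones, as were 14.7% of all genes, with a log2 fold change of 0.23 (SE 0.119). Among the 5, clone A was level (0.0055 in log2), and clone J was lower (-0.24). SPP1 had 0.34 (SE 0.147, edgeR adjusted p = 0.551), and 0.21 without WT clone J, and was higher in 4 of 6 clones. The log2 change from differentiation 1 to 2 for GPNMB was 4.11 in clone J, 3.05 in L, -1.01 in K and -2.35 in A, so the clones moved in both directions, and without WT clone J the log2 fold change over the other clones was 0.04 (SE 0.724). APOE had 3.09 in clone J, 1.08 in L and values from -1.53 to -0.51 in the other 4 clones. For APOE the log2 fold change over all clones was 0.00 (SE 0.576), and -0.50 without WT clone J.

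Among the lipid handling genes 5 of 19 were higher and 2 lower at an unadjusted p under 0.05 in differentiation 2, against 5.57% and 3.57% of all genes. The lipoprotein receptor gene LRP1 (log2 fold change 0.60, SE 0.0885) was among the higher. The cholesterol exporter genes ABCG1 (-2.43, SE 0.474) and ABCA1 (-1.75, SE 0.489) were the lower ones. None passed the adjusted threshold in edgeR, where the smallest adjusted p of the list was 0.114. Of the 20 TREM2 signaling genes 3 were higher (LYN, MS4A4A and ADAM10), and of the 26 further DAM genes 3 were higher and 2 lower by the same measure.

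**Figure D5:**
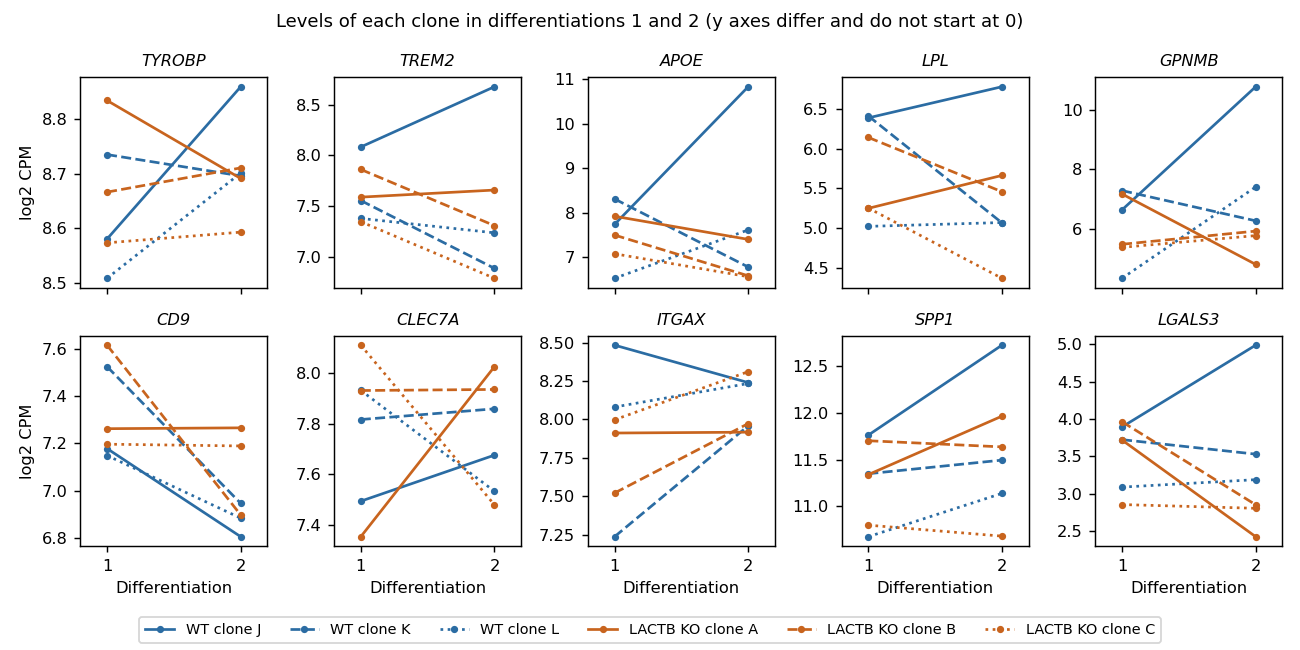
log2 CPM of the 10 genes in differentiations 1 and 2 (horizontal axis), 1 line per clone, with WT in blue and LACTB KO in orange and separate vertical axes. The lines of CD9 run down or level, with 5 of 6 clones lower in differentiation 2, whereas the lines of GPNMB and APOE cross and clone J alone climbs to the top.

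Whether the difference between differentiations was unlike in the genotypes was tested as an interaction. edgeR called 0% of genes, with 171 (0.986%) at an unadjusted p under 0.05, and DESeq2 called 0. LGALS3 was the only member at an unadjusted p under 0.05, with an interaction of -1.16 in log2 (SE 0.459, unadjusted p = 0.0399 and adjusted p = 1 in edgeR). It was lower in differentiation 2 in each of the 3 LACTB KO clones, by -1.29 in A, -1.11 in B and -0.05 in C, while the WT clones had 1.09 in J, -0.19 in K and 0.10 in L. Without WT clone J the interaction was -0.78 (unadjusted p = 0.113 in edgeR). GPNMB had -2.73 (SE 1.56) and APOE -1.57 (SE 1.08), and without WT clone J these were -1.45 and -0.43.

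Clones of the same genotype were compared in turn, since the edit was carried by few lines. edgeR called 7 genes (0.0404%) as unlike between clones that share a genotype, LACTB among them, and 1476 (8.51%) had an unadjusted p under 0.05. None of the 10 genes was called, and SPP1, TREM2, LPL and ITGAX had an unadjusted p under 0.05. SPP1 had the largest F (11.4, unadjusted p = 0.00216 and adjusted p = 0.236 in edgeR), with 5098 CPM in clone J, 2759 in K and 1922 in L, and 3338 in A, 3262 in B and 1714 in C. TREM2 (F 6.93, unadjusted p = 0.0103 and adjusted p = 0.392 in edgeR) was at 338 CPM in clone J against 153 in K and 158 in L. Without J2, 19 genes were called and no member, and SPP1 (F 11.2), TREM2 (F 4.93) and ITGAX (F 8.05) had an unadjusted p under 0.05 in edgeR. With all libraries the spread within WT in SPP1 and TREM2 was wider than the difference between the genotype means.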

How the data were processed

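Bulk RNA-seq of WTC11 iMGLs was used, with 3 clones per genotype and 2 differentiations per clone. The authors prepared TruSeq v2 libraries, which do not mark strand, trimmed the reads and mapped them to hg38 with STAR. The deposited values are estimated counts, unscaled. The counting tool and its strand setting are not given in the sources used here. The submitters' processing notes name R 4.3.3. Counts were rounded, since 10.8% to 11.5% of values per library were not whole, although the plan had assumed whole counts. The 10 genes and the lists of related genes were chosen with earlier results of these data known.

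Genotypes were compared on the sums of both libraries of each clone, and differentiations, their interaction with genotype and clones of the same genotype on all 12 libraries, with a fixed effect for each clone. The test was edgeR 4.0.16 (TMM, filterByExpr, quasi-likelihood) with Benjamini-Hochberg adjustment over all genes tested and a threshold of 0.05. DESeq2 1.42.0 and limma 3.58.1 were alternatives, and so were other normalization, filter, covariates and leaving out clones or libraries. The mixed model of the study was not used here. The tests were checked on simulated data. In the genotype check, simulated clones of a genotype differed only by the spread seen within clones. That check thus could not show how the genotype test behaves where such clones differ further. For log2 CPM the prior count was 2, and the floor was 3 counts. Genes were counted as 2-fold or 4-fold above every other library only from a level of 1 CPM. Nothing says that the libraries of a clone came from separate cultures beyond the differentiation number, so p-values measure the spread between these clones and libraries. No pair of libraries was identical.

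The named genes are LACTB, the 10 genes, up to 3 genes per list with the smallest p, the 3 genes most correlated with each member, and genes behind a small count; some genes that this rule names are not reported here. ABCA1, FABP3, MSR1, CD36, SYK, MITF, SLC2A5, KIT, ABCG1, CST7, AXL, CSF1, CD52, ANKH, P2RY12, P2RY13, CX3CR1, CSF1R and the genes high in J2 were chosen after their values were seen where that rule does not name them. Same-numbered WT and LACTB KO libraries on average shared little (mean correlation of deviations 0.036, against -0.036 for different numbers), but the labels give the number as the batch. Deviations were taken within each genotype, so these means nearly mirror each other by construction. Single same-numbered pairs ran from -0.499 (L2 and B2) to 0.606 (K2 and B2). Clones of the same genotype were not compared in this way. Coordinates are from GENCODE version 44, in which 62639 of the 62703 identifiers were found, and promoter sequences are from RefSeq on GRCh38.p14.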

Additional observations from a re-analysis of the deposited data

Results flagged for a closer look

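On the CPM scale 5 of 20 groups, each gene in the 6 libraries of a genotype, held a library whose gap to the nearest other was a larger share of the group's range than the 0.625 that Dixon's test allows, where chance gives about 1 in 20. In WT this was J2 in 4 genes, with a share of 0.869 for APOE, 0.913 for GPNMB, 0.642 for SPP1 and 0.726 for LGALS3. In LACTB KO it was A1 for GPNMB, with a share of 0.717 at 145 CPM. On the log2 scale 0 groups had such a library, with shares of 0.586 for APOE and 0.523 for GPNMB in J2.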

How the results depend on the processing

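No member was called under any alternative, and the smallest adjusted p was 0.0985 for LPL between clones of the same genotype with the stromal covariate in edgeR. In LACTB KO against WT, 156 of 170 values of the 10 genes kept their direction, and in differentiation 2 against 1, 115 of 120. The cause of the other values was not tested. The calls over all genes moved from 0 in LACTB KO against WT to 2 without the filter and 171 with DESeq2 (0 to 1 when 1 clone was left out). In differentiation 2 against 1 they moved from 0 to 80 without the filter, 266 with DESeq2 and 2 with genotype in place of clone. They moved to 1 with the stromal covariate, 22 without WT clones J and K and 0 to 44 when 1 clone was left out. The 44 were without WT clone J. Between clones of the same genotype they moved from 7 to 14 without the differentiation term, 25 with the stromal covariate and 19 without J2, which was chosen after seeing the data.

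Genotype differences that changed sign (log2) are given with their range when 1 clone was left out. SPP1 was 0.036 without J2 and -0.50 to 0.24 by clone (above 0 without J or C), and TREM2 was -0.49 to 0.18 by clone (above 0 without J). ITGAX was 0.016 without J1 and K2 and -0.30 to 0.030 by clone (above 0 without J). TYROBP, at 0.00 in the main fit, was -0.0020 with the replicate block, -0.0017 with limma voom, -0.091 in differentiation 2 alone, -0.0065 with the stromal covariate and the block, -0.055 without J1 and K2 and -0.035 to 0.050 by clone. With the replicate block, a fit without a clone term, GPNMB had -2.02 and an unadjusted p of 0.0707 in edgeR, and the block changed no call. Between differentiations APOE was -0.22 without WT clones J and K and -0.50 to 0.36 by clone, and CLEC7A was -0.15 to 0.11. The interaction was -0.63 to 0.26 for LPL, -0.59 to 0.056 for TREM2, -0.26 to 0.39 for CLEC7A and -0.18 to 0.29 for ITGAX. The genotype difference of GPNMB ranged from -3.06 to -0.77 and that of APOE from -2.003 to -0.22, the smaller ones being without J. LACTB was -3.20 without clone B, then called (adjusted p = 0.0157 in edgeR).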
